A study of Mus musculus with 24 samples.

Results

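The 9 genes described here encode chains of collagen VI (Col6a1, Col6a2, Col6a3, Col6a5 and Col6a6), a chain of collagen VIII (Col8a1) and the fibril-associated collagens XII, XIV and XVI (Col12a1, Col14a1 and Col16a1). Col6a4, a further chain of collagen VI, is not among them. They were taken by symbol and made up 9 of the 56205 genes of a count table of whole mouse liver. The animals were C57BL/6J mice of both sexes, without a transgene, 8 to 10 weeks old at the start. FFD mice received a diet rich in palm oil with added fructose and cholesterol for 20 weeks, and FFD control mice a control diet for the same time, with 6 mice per diet and sex. Each diet gave 12 libraries of poly(A) RNA, and the labels give no sex, cage or date for a library.

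Collagen VI is assembled from 1 chain each of alpha 1, alpha 2 and of alpha 3, or of alpha 5 or alpha 6 in its place, into beaded microfilaments that lie around cells and next to basement membranes. Collagen VIII forms open networks around vessels. Collagens XII, XIV and XVI do not form fibrils of their own. They bind along fibrils of collagen I and other fibrillar collagens. In liver, these chains are mainly products of stellate cells, portal fibroblasts and vessel walls, and scar matrix is built from fibrillar collagens together with them.

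Of the 9 genes, 7 were higher on FFD and none was lower. A gene counted as called at an adjusted p of 0.01 or less together with a log2 fold change beyond 0.5 in either direction, from the quasi-likelihood test of edgeR and Benjamini-Hochberg correction over 17913 genes. All 9 genes were tested. Of all tested genes, 13.2% were called higher and 4.99% lower. The median log2 fold change was 1.69 over the 9 genes and -0.03 over all tested genes. The called genes were the chains Col6a1, Col6a2 and Col6a3, then Col8a1, Col12a1, Col14a1 and Col16a1. Col6a5 and Col6a6 were not called.

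Levels below are in CPM, counts scaled to a common library total, after scaling of library totals by edgeR's TMM method. Totals on genes ranged from 14468418 to 22112552, and TMM factors from 0.994 to 1.341 in FFD libraries and from 0.679 to 1.006 in control libraries. Xist, the RNA that silences an X chromosome, divided the libraries of each diet into 6 with 2664 to 6285 counts (replicates 1 to 6) and 6 with 0 to 3 counts (replicates 7 to 12). These sets are not conditions of the labels, and values within them are given below. In bulk RNA, more cells of a type cannot be told apart from more RNA per cell.

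The promoters of the 3 collagen VI chains that make the main assembly are shown first. These chains were called higher over all libraries and within each set, and Col6a1 and Col6a2 moved most alike of the 9. Col6a1 lies on the minus strand at chr10:76708792-76726168 and Col6a2, also on the minus strand, next to it at chr10:76595762-76623630 (GRCm38, GENCODE M21). Col6a3 lies on the minus strand at chr1:90765923-90843971. Capitals mark matches on either strand to any of 6 short motifs. The TATA box was searched with the letters TATAAA, and the GC box, bound by Sp1 and related factors, with GGGCGG. The CCAAT box was searched by its name's letters. For AP-1 factors the letters were TGANTCA, for RUNX factors TGTGGT, and for TEAD factors, partners of YAP, they were GGAATG. No match in the printed lines overlapped another. The sequences are those of RefSeq on GRCm38.p6, from the minus strand, 5′ to 3′, ending at the last base before the gene's start, except that for Col6a1 only the part beyond the M21 gene is given.
Col6a1: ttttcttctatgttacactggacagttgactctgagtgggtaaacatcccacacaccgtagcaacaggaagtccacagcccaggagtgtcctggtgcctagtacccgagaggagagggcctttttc
Col6a2: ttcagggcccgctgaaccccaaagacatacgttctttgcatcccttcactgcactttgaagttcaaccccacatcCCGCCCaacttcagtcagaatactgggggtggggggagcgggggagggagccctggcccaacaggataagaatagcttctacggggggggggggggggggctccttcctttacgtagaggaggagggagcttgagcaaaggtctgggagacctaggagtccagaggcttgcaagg
Col6a3: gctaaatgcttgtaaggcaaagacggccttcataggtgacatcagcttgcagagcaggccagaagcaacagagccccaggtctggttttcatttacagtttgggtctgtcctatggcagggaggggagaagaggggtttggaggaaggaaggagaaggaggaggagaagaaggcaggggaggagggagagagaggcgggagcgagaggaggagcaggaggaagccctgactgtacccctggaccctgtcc
These lines span chr10:76726169-76726294, chr10:76623631-76623880 and chr1:90843972-90844221. In the full window of 250 bases before the RefSeq start of Col6a1, a single match was found, to the AP-1 site, at -90 from the start. That match lies in the part not printed. The AP-1 site was present in 6.75% of 32851 promoter windows of that length. RefSeq gives Col6a2 a pair of starts. The printed window held 1 GC box at -175 from the start, a motif present in 32.7% of the windows. The window of the other start, chr10:76623405-76623654, held 3 GC boxes and 1 TEAD site, the latter present in 12.6% of the windows. It is not printed, since it overlaps the M21 gene. The Col6a3 window held no match to any of the 6 motifs. The other 4 members with a window, Col6a5, Col6a6, Col8a1 and Col16a1, all held GC boxes. Col8a1 also held a RUNX site, present in 4614 of the 32851 windows, and Col16a1 a CCAAT box, present in 33.8%. A match is a description of letters only.

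The chains of the main collagen VI assembly were present in every library. Col6a1 ranged in FFD libraries from 17.3 CPM through a median of 36.6 to 72.1 CPM, and in control libraries from 7.03 through 13.2 to 35.3 CPM. It was 2.95-fold higher on FFD (log2 1.56, SE 0.25, adjusted p = 2.68e-05). Col6a2 ranged from 13.3 through 25.9 to 66.1 CPM on FFD and from 4.57 through 7.04 to 22.7 CPM on the control diet, a difference of 4.10-fold (log2 2.04, SE 0.30, adjusted p = 1.33e-05). Col6a3, the large chain whose C-terminal end can be released as endotrophin, ranged from 10.5 through 37.8 to 118.1 CPM on FFD and from 4.48 through 9.64 to 27.2 CPM in controls, 4.28-fold higher (log2 2.10, SE 0.31, adjusted p = 1.12e-05). The highest control library of all 3 chains was FFD control replicate 11. Of the 12 FFD libraries, 7, 7 and 10 lay above it for Col6a1, Col6a2 and Col6a3. Without that control library, the highest for these same chains, all 12 FFD libraries lay above every control for Col6a2. For each of Col6a1 and Col6a3 it was 11. Only 1 of the 9 genes was then without overlap, and the share of all tested genes without that library was not computed. Over all 24 libraries, 0 of the 9 genes had every FFD library above every control library, against 1.48% of all tested genes.

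The chains Col6a5 and Col6a6, which can take the place of alpha 3, lay near the limit of these libraries, where 3 counts were worth 0.118 to 0.305 CPM. Both lie on the minus strand of chromosome 9, Col6a6 at chr9:105687809-105828160 and Col6a5 at chr9:105856078-105960643, and 3.4% of the 51-base words of Col6a5 transcripts also occur in Col6a6. Reads from those stretches may be split between both genes. Col6a5 had 0 to 109 counts in FFD libraries, with a median of 13, and 0 to 16 in controls, with a median of 3.5. Its log2 fold change was 1.72 (SE 0.60, adjusted p = 0.0252). Col6a6 had 0 to 329 counts on FFD, with a median of 14.5, and 2 to 27 in controls, with a median of 5.5 (log2 2.15, SE 0.68, adjusted p = 0.0132), and DESeq2 called it (adjusted p = 0.00514). The highest value of both came from FFD replicate 9, at 4.61 CPM for Col6a5 and 13.9 CPM for Col6a6, and without it the log2 fold changes were 1.18 and 1.03. A two-sided permutation test of the mean log2(CPM + 1), with 100000 resamples, gave p = 0.0221 for Col6a5 and p = 0.0475 for Col6a6.

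Col8a1, at chr16:57624258-57754737 on the minus strand, encodes a short-chain network collagen. It had 0 to 62 counts on FFD, with a median of 26.5, and 0 to 20 in controls, with a median of 6.5. It was 3.22-fold higher (log2 1.69, SE 0.45, adjusted p = 0.00394). The call was lost with limma-voom (adjusted p = 0.0482) and within the libraries with Xist above 1000 counts (edgeR, adjusted p = 0.0733). FFD replicate 3 and control replicate 5 had no count of it, while 7 FFD libraries lay above the highest control.

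The fibril-associated genes were 1.64- to 2.42-fold higher on FFD. Col12a1, at chr9:79598991-79718831 on the minus strand, encodes a chain that binds collagen I fibrils and tenascins. It ranged from 1.78 through 3.56 to 6.72 CPM on FFD and from 0.407 through 1.44 to 3.09 CPM in controls (log2 1.27, SE 0.26, adjusted p = 0.000371). Its highest FFD library was replicate 3, and 6 FFD libraries lay above the highest control. Col14a1, at chr15:55307750-55520803 on the plus strand, encodes a chain that sits on fibrils and limits their side-by-side fusion. It was the member with the highest level in both diets and the smallest fold change. Its levels ranged from 53.3 through 83.0 to 119.3 CPM on FFD and from 28.3 through 47.3 to 79.7 CPM in controls, 1.64-fold higher (log2 0.71, SE 0.16, adjusted p = 0.0011). Col16a1, at chr4:130047840-130099283 on the plus strand, encodes a chain found on fibrils and near basement membranes. It ranged from 5.65 through 10.3 to 20.2 CPM on FFD and from 1.89 through 3.92 to 8.27 CPM in controls (log2 1.23, SE 0.20, adjusted p = 4.73e-05). Its FFD libraries lay above the highest control in 10 of 12 cases. The permutation test gave p = 0.00011 for Col12a1, p = 0.0002 for Col14a1, p = 5e-05 for Col16a1 and p = 0.0008 for Col8a1. For Col6a1, Col6a2 and Col6a3 it gave p = 5e-05, 3e-05 and 5e-05.

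**Figure D1:**
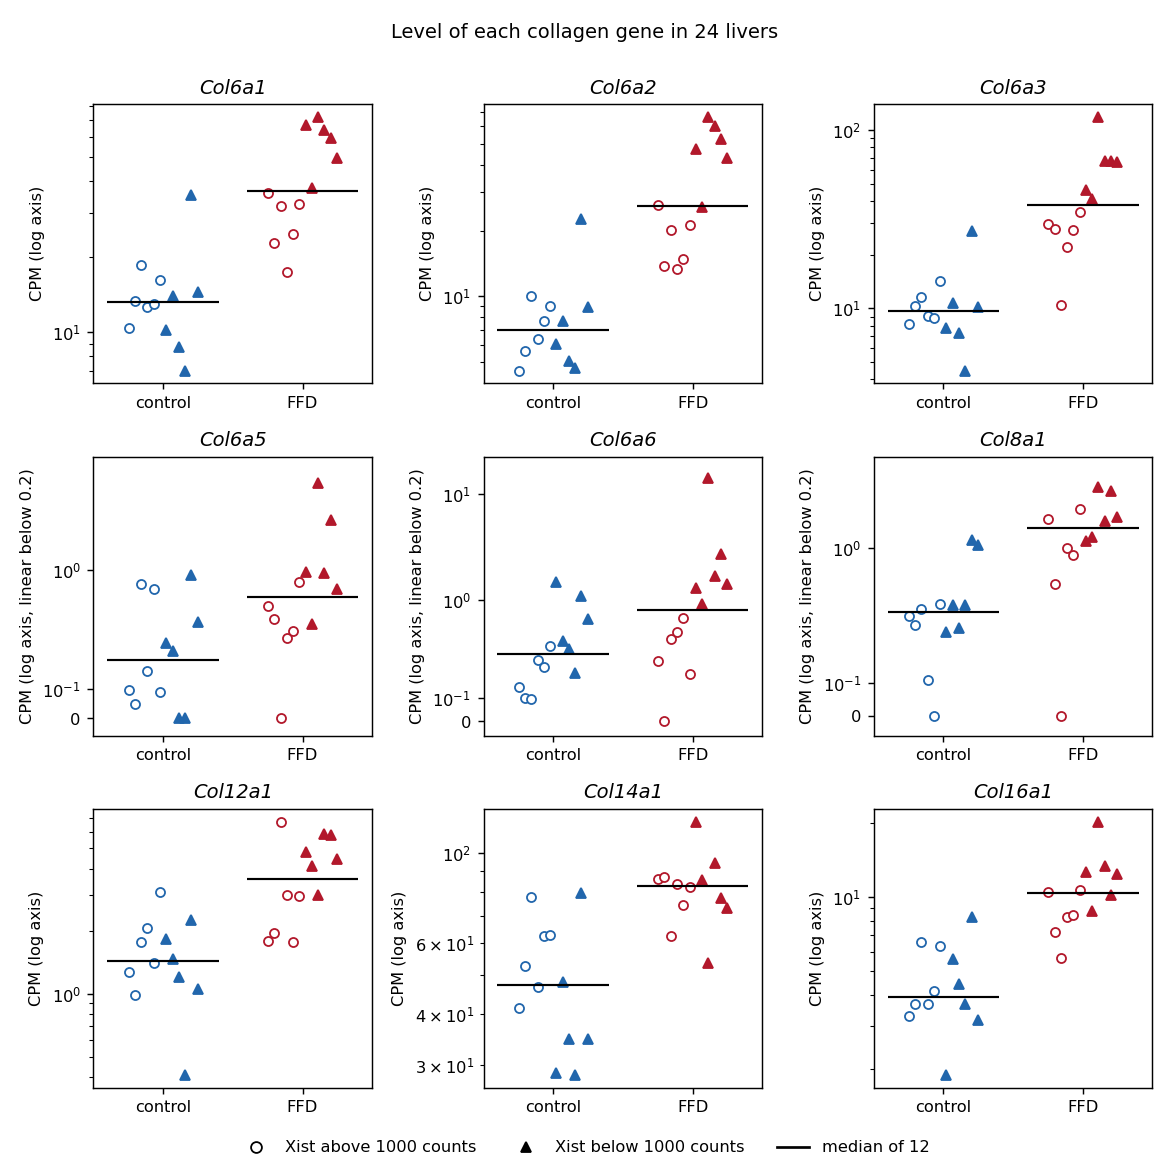
Level of each of the 9 genes in every library, in CPM on a log axis (linear below 0.2 for the 3 genes with libraries at 0), with control libraries left and FFD libraries right; open circles are libraries with Xist above 1000 counts, filled triangles those below, and the line is the median of 12. FFD replicate 9 holds the highest value of 7 of the 9 genes, while Col14a1 has its lowest FFD value there, 53.3 CPM.

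3 libraries stood apart for these genes. FFD replicate 9 was highest in 7 of the 9, but lowest of its diet in Col14a1. Its TMM factor, 1.341, was the highest of all, and its summed cholangiocyte markers (Krt19, Krt7, Epcam and Sox9) reached 151.4 CPM against at most 35.02 in the other FFD libraries. Its summed portal fibroblast markers were 107.1 CPM against at most 63.3, and its quiescent stellate markers (Reln, Lrat, Hgf, Ecm1 and Ngfr) summed to 129.7 CPM, below the 172.4 CPM of the next lowest FFD library. FFD replicate 3 was lowest of its diet in 4 of the 9, among them Col6a3, but highest in Col12a1. Genes of blood cell precursors stood high there, with Mpo at 37.4 CPM against at most 0.434 in any other FFD library, and Slc4a1 at 47.2 CPM against at most 0.558. Hamp, the hepatocyte's iron-regulating hormone, was at 1.71 CPM against at least 129.4. These 3 genes were picked after their values had been seen. FFD control replicate 11 was the highest control in 7 of the 9, and its activated stellate markers summed to 163.5 CPM against at most 105.3 in the other controls (46.6 against at most 33.0 CPM without Spp1). Without these 3 libraries and control replicate 10, the shallowest one, 7 of the 9 genes were called higher, against 12.7% of the genes then tested.

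Markers of other cell types also moved with the diet, and their part in the results was not tested. Hepatocyte markers (Alb, Hnf4a, Apoa1, Ttr and Cps1) summed to 33750 to 85700 CPM on FFD and 74410 to 122800 CPM in controls, and 4 of 5 were called lower. Monocyte-derived macrophage markers were called higher in 5 of 5, portal fibroblast markers in 5 of 6 (all but Thy1), activated stellate markers in 4 of 6 and cholangiocyte markers in 3 of 4. Among the 5 quiescent stellate markers, Ngfr was called higher and none lower. The remaining lists had 2 of 4 called higher for vascular smooth muscle, 2 of 5 for mesothelium, 1 of 4 for sinusoidal endothelium and 1 of 4 for resident macrophages, and none of these markers was called lower. No marker was at 0 in all libraries. Summed portal fibroblast markers ranged from 19.1 to 107.1 CPM on FFD and from 9.47 to 26.6 CPM in controls, and activated stellate markers from 57.2 to 810.7 CPM and from 38.8 to 163.5 CPM. Spp1, which cholangiocytes and macrophages also express, made up most of the latter sum, with means of 267.7 CPM on FFD and 43.5 CPM in controls. The other 5 activated stellate markers summed to 30.9 to 81.5 CPM on FFD and 15.9 to 46.6 CPM in controls, and Acta2 and Tagln were not called (adjusted p = 0.03 and 0.0532). The cholangiocyte sum ranged from 5.28 to 151.4 CPM on FFD and from 4.78 to 13.99 CPM in controls.

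Within the sets of libraries the rise was not called for the same number of genes. In the libraries with Xist above 1000 counts, 3 of the 9 genes were called higher, against 2.90% of all tested genes. These were Col6a1 (log2 0.97, SE 0.17), Col6a2 (1.34, SE 0.20) and Col6a3 (1.30, SE 0.22). Not called there were Col8a1 (1.88, SE 0.67), Col16a1 (0.88, SE 0.20) and Col12a1 (0.78, SE 0.35, adjusted p = 0.151 in edgeR). Col6a6 (0.74, SE 0.60), Col14a1 (0.48, SE 0.14) and Col6a5 (0.37, SE 0.70) were not called either. Apart from replicate 3, the FFD levels of Col12a1 there were 1.785 to 2.987 CPM, within the control range of 0.991 to 3.09 CPM. In the libraries below 1000 counts, 7 were called, against 14.4%, with log2 fold changes of 1.98 for Col6a1, 2.43 for Col6a2, 2.59 for Col6a3, 1.57 for Col8a1, 1.74 for Col12a1, 1.0 for Col14a1 and 1.53 for Col16a1. There the FFD levels of Col6a3 ran from 41.0 to 118.1 CPM and the control levels from 4.48 to 27.2 CPM, with no overlap. In the other set they ran from 10.5 to 34.7 CPM and from 8.16 to 14.2 CPM, with overlap at FFD replicate 3. Col6a1, Col6a2, Col12a1 and Col16a1 also had no overlap in the set below 1000 counts, and Col6a2 had none in the set above. The share of all tested genes without overlap within each set was not computed. The difference between the sets was itself tested as an interaction of diet and set. It passed for 0 of the 9 genes at an adjusted p of at most 0.01, against 4.06% of all tested genes. Its log2 size was 1.28 for Col6a3 (SE 0.45, unadjusted p = 0.00908, adjusted p = 0.0724 in edgeR) and 1.08 for Col6a2 (SE 0.43, adjusted p = 0.114). Of the 9, Col8a1 alone had the smaller estimate in the set with low Xist (-0.32, SE 0.78, adjusted p = 0.85).

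**Figure D2:**
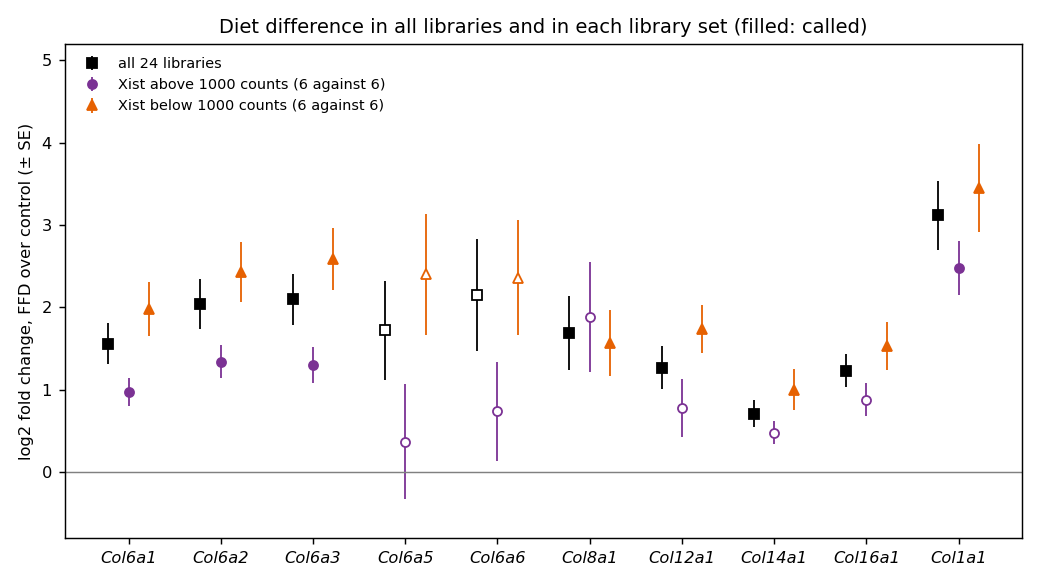
Log2 fold change of FFD over control (± SE, edgeR) for the 9 genes and Col1a1 in all 24 libraries (squares), in the 12 with Xist above 1000 counts (circles) and in the 12 below (triangles), with filled symbols for called differences. Col6a1, Col6a2 and Col6a3 are filled in all 3 fits, and Col6a5 and Col6a6 in none.

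Dividing CPM by the length of the longest protein-coding transcript puts the genes on 1 scale. On this scale of CPM per kb, the order was the same on both diets. Col14a1 stood first, at 12.7 ± 2.55 CPM per kb on FFD and 7.71 ± 2.75 in controls (SD, n = 12 each). Col6a1 followed at 10.4 ± 4.61 and 3.53 ± 1.78 CPM per kb, then Col6a2 at 7.25 ± 4.11 and 1.76 ± 1.05, Col6a3 at 4.60 ± 2.89 and 1.07 ± 0.565, and Col16a1 at 2.05 ± 0.723 and 0.876 ± 0.344. Col12a1, Col8a1, Col6a6 and Col6a5 lay at or below 0.335 CPM per kb on either diet. The 3 main collagen VI chains kept the order Col6a1, Col6a2, Col6a3 in all 12 libraries of each diet. The places of Col6a2 and Col6a6 rest on the length used. Divided by the merged length of all annotated exons, chosen after the data had been seen, Col6a2 stood at 4.05 and Col6a3 at 3.89 CPM per kb on FFD, and Col6a3 exceeded Col6a2 in 7 of 12 FFD and 4 of 12 control libraries, while Col6a1 stayed above Col6a2 in all. By the merged length, Col6a6 stood above Col8a1 on FFD, at 0.218 and 0.175 CPM per kb, but below it in controls, at 0.0489 and 0.0544. The FFD mean of Col6a6 by longest transcript, 0.228, had an SD of 0.436 CPM per kb, with its highest value in FFD replicate 9. By longest transcript, Col16a1 exceeded Col12a1 in all 12 libraries of each diet. The other neighbours did not keep their order in every library of both diets. Col14a1 exceeded Col6a1 in 12 of 12 controls but in 8 of 12 FFD libraries, Col6a3 exceeded Col16a1 in 8 controls and 11 FFD libraries, and Col12a1 exceeded Col8a1 in 9 controls and 8 FFD libraries. As a share of the summed level of the 9 genes, Col14a1 held 51.1% ± 5.88 in controls and 36.4% ± 11.4 on FFD. The share of Col6a2 was 11.3% ± 2.36 in controls and 17.8% ± 4.84 on FFD, and that of Col6a3 6.89% ± 1.10 and 11.3% ± 3.92. Shares use the longest protein-coding transcript and add to a whole, so they are not independent of each other.

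**Figure D3:**
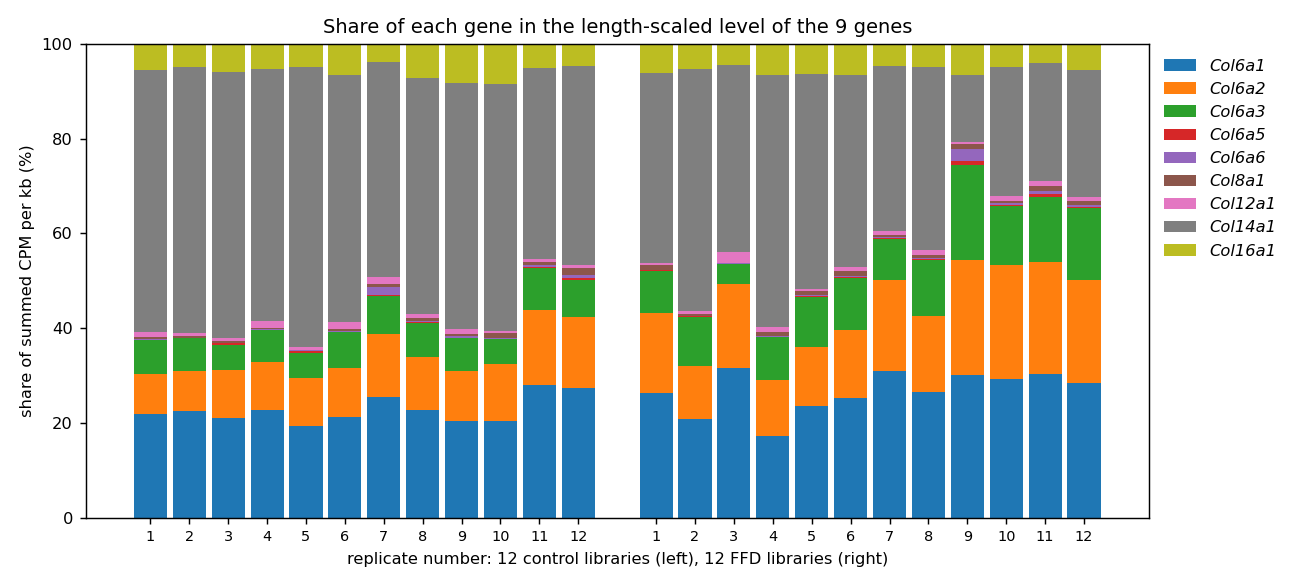
Stacked share (%) of each gene in the summed CPM per kb of the 9 genes, with 1 bar per library and the control libraries left of the FFD libraries. Col14a1 holds 51.1% of a control bar on average and 36.4% of an FFD bar, and least in FFD replicate 9.

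Ratios of counts within a library do not depend on scaling. 15 ratios were tested by two-sided permutation with 100000 resamples of the mean log2 ratio, with 0.5 added to each count and p-values adjusted over the 15, at a threshold of 0.05. Col6a1 counts were 1.80 times those of Col6a2 in controls (log2 0.85 ± 0.20, SD, n = 12) and 1.35 times on FFD (0.43 ± 0.23). The log2 ratio was lower by 0.42 on FFD (permutation test, adjusted p = 0.00015), and 8 of 12 FFD libraries lay below every control. The ratio of Col6a3 to Col6a1 was higher on FFD, at a log2 mean of 0.00 ± 0.59 against -0.43 ± 0.15 (permutation test, n = 12 each, adjusted p = 0.0263), with 9 FFD libraries above every control and FFD replicate 3 far below them at -1.59. Without FFD replicate 9 the difference was 0.37 with an adjusted p of 0.0537, and without FFD replicate 12 it was 0.39 with an adjusted p of 0.0501. The ratio of Col6a3 to Col6a2 was 0.43 ± 0.54 on FFD and 0.42 ± 0.28 in controls (permutation test, adjusted p = 0.938). For Col6a5 to Col6a3 the log2 difference was -0.44 (adjusted p = 0.41), for Col6a6 to Col6a3 -0.89 (adjusted p = 0.177) and for Col12a1 to Col14a1 0.51 (adjusted p = 0.0901), and a p above the threshold does not show that a ratio was the same.

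Every one of the 9 genes fell relative to Col1a1, the alpha 1 chain of collagen I that the study follows. Any gene that rises less than Col1a1 falls in such a ratio. Col1a2 and Col3a1, at log2 2.41 and 2.60, also rose less, and the median of all tested genes was -0.03. The share of all genes that fell relative to Col1a1 was not computed. Col1a1 itself rose by 3.12 on the log2 scale (SE 0.42, adjusted p = 4.09e-06 in edgeR). Zfp469, the mouse ortholog of the transcription factor studied, rose by 2.78 (SE 0.46, adjusted p = 4.71e-05 in edgeR). Its counts were low, at 6 to 62 on FFD and 0 to 14 in controls, with a control median of 1.5. In 8 of the 12 control libraries it had 3 counts or fewer. The ratio of Col14a1 to Col1a1 changed most, from a geometric mean of 4.62 in controls to 0.808 on FFD (log2 difference -2.51, permutation test, adjusted p = 0.000112). The differences for Col6a1, Col6a2 and Col6a3 were -1.74, -1.32 and -1.31 (permutation test, adjusted p = 0.000112, 0.00015 and 0.000112). Those for Col12a1 and Col16a1 were -2.01 and -2.04, with adjusted p = 0.000193 and 0.000112 from the same test. The low-count genes Col6a5, Col6a6 and Col8a1 had differences of -1.74, -2.20 and -1.70 (permutation test, adjusted p = 0.00468, 0.000956 and 0.00468). With 0.1 added in place of 0.5, the adjusted p was 0.0852 for Col6a5 and 0.0591 for Col8a1.

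**Figure D4:**
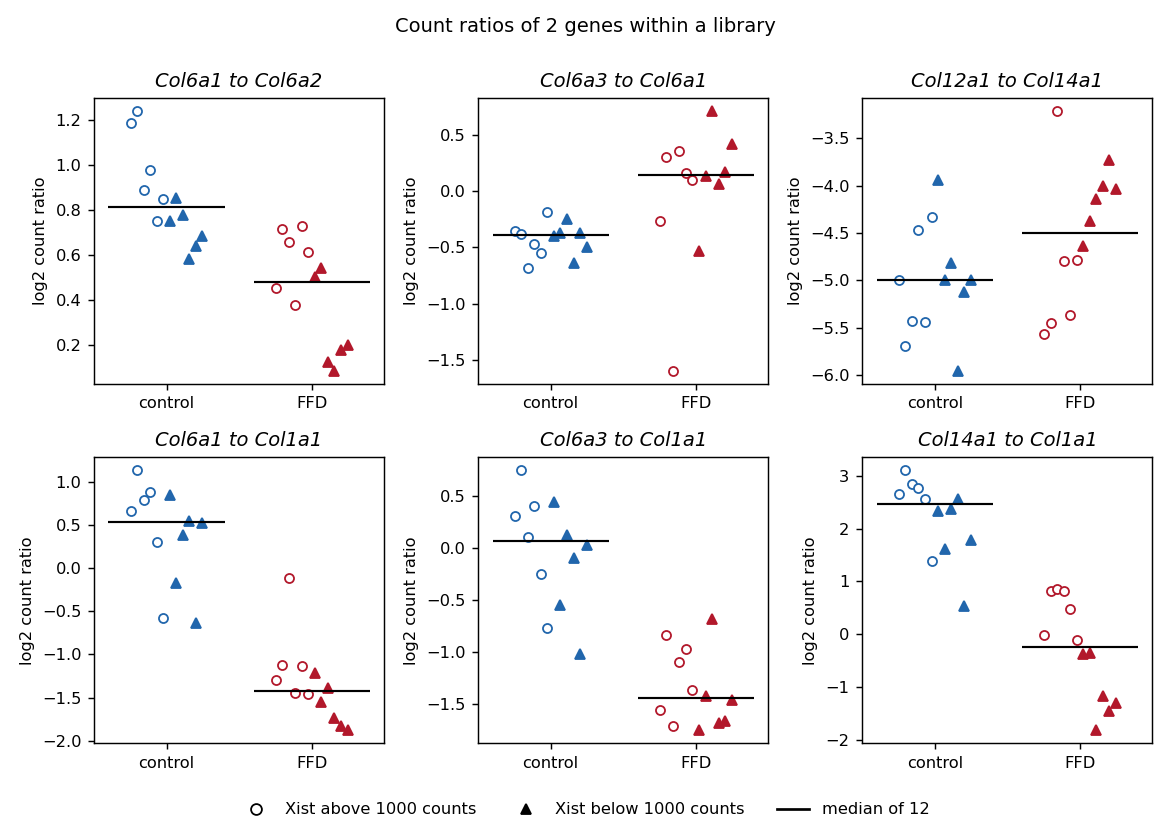
Log2 ratio of the counts of 2 genes within each library (0.5 added to each count), for 6 of the 15 pairs tested, with control libraries left and FFD libraries right, symbols split by Xist counts and lines at the median of 12. Col6a1 to Col6a2 falls from a mean of 0.85 to 0.43, and Col14a1 to Col1a1 shows the widest gap between the diets.

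The other collagen genes and the proteins that collagen VI and the fibril-associated collagens meet were read from lists. Of 11 fibrillar collagen genes, 9 were tested and 5 were called higher, with Col1a2 at log2 2.41 (SE 0.31), Col3a1 at 2.60 (SE 0.30), Col5a1 at 1.42 (SE 0.16) and Col5a2 at 2.13 (SE 0.25) beside Col1a1. Col5a3, Col11a2, Col24a1 and Col27a1 were not called, at -0.27, -0.18, -0.49 and -0.34 (adjusted p = 0.655, 0.473, 0.344 and 0.381 in edgeR). The median of the list was 1.42. Of 10 further network and fibril-associated chains, 3 passed the filter and none was called (Col8a2 0.24, Col9a3 0.99 and Col20a1 -0.77 on the log2 scale, adjusted p = 0.699, 0.0726 and 0.0198). Col6a4 had at most 2 counts in a library. Of 10 receptors, 5 were called higher and none lower, with a median of 0.89. Antxr1, a cell-surface receptor that binds collagen VI, rose by 1.15 (SE 0.19), and Antxr2 had a log2 fold change of 0.17 (SE 0.09, adjusted p = 0.141). The discoidin domain receptors, kinases that bind collagen, were Ddr1 at 2.56 (SE 0.41) and Ddr2 at 0.62 (SE 0.15). Ddr1 varied widely on FFD, with a mean of 18.2 CPM and an SD of 19.7 CPM. The summed receptors reached 329.9 CPM in FFD replicate 9, against at most 285.6 CPM in the other FFD libraries. The integrin alpha chains Itga2 (2.05, SE 0.50) and Itga11 (1.57, SE 0.37) rose from means of 0.164 and 0.269 CPM in controls. On FFD the mean of Itga2 was 0.667 CPM, with an SD of 0.655 CPM. Itga1, with a log2 fold change of -0.10, and the shared beta chain Itgb1, with 0.10, were not called. The proteoglycan Cspg4 had a log2 fold change of 1.41 (SE 0.68, adjusted p = 0.102).

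Of 8 matrix partners, 6 were called higher and none lower, with a median of 1.11. The small leucine-rich proteoglycans, which bind collagens, were Bgn at 1.21 (SE 0.18), Dcn at 0.65 (SE 0.13), Lum at 2.11 (SE 0.29) and Fmod at 2.07 (SE 0.38). Matn2, an adaptor protein of the matrix, rose by 1.22 (SE 0.21) and Tgfbi, which binds collagens and integrins, by 1.01 (SE 0.12). Vwa1, a von Willebrand factor A domain protein, and Tnxb, a tenascin that binds collagens XII and XIV, were not called, at 0.20 (SE 0.32) and 0.39 (SE 0.18).

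The genes most alike to each member in their deviations over 24 libraries, after the mean of each diet and set was subtracted, were ranked by Pearson r among 13776 genes with a mean of at least 10 counts. All points share libraries and depth, so r is a description. For Col6a1 and Col6a2 each was the other's nearest gene, at r = 0.96. Next came Col1a2 and Ptgfrn for Col6a1 (both 0.86), and Vim, an intermediate filament of mesenchymal cells, and Sparc, a collagen-binding matrix protein, for Col6a2 (0.89 and 0.88). Col6a3 lay nearest to Timp2, an inhibitor of matrix metalloproteinases, Emp1 and Fblim1 (each 0.95), and its r with Col6a1 was 0.70. Col14a1 lay nearest to Igfbp3 (0.88), Lrat, the enzyme that esterifies retinol in stellate cells (0.85), and Akap2 (0.84). Col16a1 lay nearest to Fstl1 (0.89), Sparc and Cdk14 (both 0.86). Col8a1 lay nearest to Islr (0.80), Cryab and the crosslinking enzyme Loxl1 (both 0.78), and Col12a1 to Smox (0.82), Dusp3 (0.80) and Ripk3 (0.78). Spearman's rho of Col12a1 with these genes was lower, at 0.67, 0.69 and 0.68. Col12a1 stood at 6.72 CPM in FFD replicate 3, against at most 2.99 CPM in the other FFD libraries with Xist above 1000 counts. The part of that library in these r values was not tested.

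The neighbours of the low-count chains rested more on FFD replicate 9. Col6a6 had r = 0.91 with Olfml2a and 0.89 with Dcdc2a and Plekhs1. Without that library these were 0.55, 0.59 and 0.58. Col6a5 had r = 0.84 with Epdr1 and Fermt1 and 0.83 with Mxra8, and 0.74, 0.71 and 0.72 without it. The r of Col6a5 with Col6a6 was 0.73 with it and 0.43 without it. For Col14a1 with Col16a1 it was 0.54 with that library and 0.81 without it, and Col12a1 had r = -0.01 with Col6a3 and 0.28 with Col14a1.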

How the data were processed

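For 24 mouse liver libraries the authors deposited raw counts of reads per Ensembl gene, not normalized. Per the labels, reads were aligned with STAR 2.7.3a to mm10. The study describes a stranded kit, the exon quantification pipeline and PISCES for its human RNA-seq. For the mouse table, the counting program, annotation and strand setting are not given in the sources used here. Symbols came from GENCODE M21 and matched 51745 of 56205 IDs. The other 4460 held 0.0723% of the counts. Depth ranged from 14468418 to 22112552 counts, and no libraries were alike within sampling noise. p-values compare a difference with the spread between these libraries. In tests over all libraries with diet as the only term, that spread includes differences between the Xist sets.

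The 9 genes, the lists and the tests were chosen with earlier results of these data known. The result of every list is given, except that 1 listed gene is not reported here, and the genes named were the members, list genes and the 3 nearest genes of each member. Genes detected (1 count or more) in 12 or more libraries were tested with edgeR 4.0.16 in R 4.3.3 (TMM, diet as the only term). In simulated counts of 17734 genes for this comparison, 100 genes were changed by 1 and 100 by 2 on the log2 scale. The changed genes were drawn from those above a minimum mean level. The test recovered 81% of those changed by 1 and 96% of those changed by 2, and called 0 unchanged genes. The simulated libraries held no Xist sets and no outlying libraries. Alternatives used DESeq2 1.42.0, limma 3.58.1, other scalings, filters, thresholds and subsets of libraries. The fit without 4 libraries and the likeness without FFD replicate 9 were added after the data had been seen.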

Additional observations from a re-analysis of the deposited data

How the results depend on the processing

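The count of 7 genes called higher lay between 5 and 9 in every alternative except the libraries with Xist above 1000 counts, where it was 3, and it was 7 to 8 when each library was left out in turn. No alternative called a member lower or turned the direction of a member's fold change. Library totals in place of TMM gave 9, with a median log2 fold change of all genes of 0.26 in place of -0.03, and 94.4% of all calls were higher in place of 72.6%. An adjusted p of 0.05 without a fold threshold also gave 9. Of the 17913 tested genes, these settings called 3827 and 3709 higher, against 2372 in the main test. Col6a6 was called with DESeq2, with library totals, with the set as a covariate and without FFD replicates 1, 2 or 6 or control replicate 7. limma-voom did not call Col8a1 (adjusted p = 0.0482), and Col14a1 was not called at a log2 threshold of 1. The count was 5 with a minimum of 10 counts in every library, which removed Col6a5, Col6a6, Col8a1 and Col12a1, and filterByExpr removed Col6a5 and Col6a6. Those filters left 11322 and 13567 genes, of which 1226 and 1957 were called higher. Deviations from the diet means correlated over 0.1 in 11 of 12 same-numbered pairs, up to 0.578, but at -0.0961 for number 9, so the numbers were not read as pairs. Own-numbered libraries were nearest for 2 FFD and 4 control libraries, and with set means also subtracted 5 of 12 pairs were over 0.1. With the replicate number as a block, 7 genes were called higher and 0 lower, and the Col6a1 to Col6a2 log2 difference was -0.42. That block fit called 2063 of all 17913 tested genes higher.

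Among the ratios, Col6a3 to Col6a1 differed by 0.28 in the libraries with Xist above 1000 counts (adjusted p = 0.475) and by 0.37 to 0.58 when each library was left out. Col12a1 to Col14a1 differed by 0.82 in the libraries below 1000 counts (adjusted p = 0.0325) and by 0.39 to 0.61 with each library left out, passing without FFD replicates 1 or 2 or control replicate 7. Col6a5 to Col1a1 was -1.47 with 0.1 added and -1.32 in the libraries below 1000 counts, and Col8a1 to Col1a1 -1.64 with 0.1 added and -1.07 in those above, none past the threshold. The causes were not tested. Of the 27 nearest genes, 9 were shared with Spearman's rho, 13 with diet means alone subtracted and 14 without FFD replicate 9.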
